A study of Gallus gallus with 2 samples.

Results

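C-DOM, the centromeric regulatory landscape of the HoxD gene cluster, was described here by its internal contacts. Its members were all pairs of 5-kb bins with both bins between 16395 and 16980 kb of chromosome 7 (chr7:16395001-16980000, assembly galGal5), from the end of the cluster next to Hoxd13 to the next domain border. This gave 117 bins and 6903 bin pairs, out of 585 bins and 171405 bin pairs in the capture region. The limits had been placed from the contact maps of these same libraries, so the separation of C-DOM at its ends is a description. They reach further on both sides than the C-DOM in which the study quantified contacts, chr7:16414184-16699172. Contacts were measured by Capture Hi-C (CHi-C), in which crosslinked DNA fragments that lie close together are ligated, enriched for 1 locus with probes and sequenced as read pairs. The 2 libraries came from wild type White Leghorn chick embryos at stage HH20, one prepared from the whole forelimb bud and the other from the whole hindlimb bud. A whole bud mixes proximal and distal cells, and with 1 library per tissue no difference has a replicate check.

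Topologically associating domains (TADs) are stretches of chromosome whose sequences meet each other more often than they meet sequences outside. In the mouse, C-DOM is the TAD that carries the enhancers of the most 5′ Hoxd genes in the future digits, whereas the opposite landscape, T-DOM, serves the proximal limb. Elements of mouse C-DOM include the enhancer Prox, close to the cluster, the conserved sequences CsA and CsB, and islands I to V, several of which act as enhancers in digits. Their chick counterparts had been located by sequence similarity. In galGal5 they lie, going away from Hoxd13, in the bins of Prox (16420 to 16430 kb), CsA (16480 to 16485 kb), CsB (16495 to 16505 kb), island V (16545 to 16555 kb), island IV (16560 to 16565 kb), island III (16580 to 16595 kb), island II (16640 to 16660 kb) and island I (16690 to 16695 kb). The Hoxd13 sequence used as a reference point lies at 16390 to 16400 kb, across the first limit of C-DOM. In the chicken RefSeq annotation, which is of another assembly (GRCg7b) and was used for gene order only, HOXD13 is followed by EVX2, LNPK, ATP5G3, ATF2 and CHN1.

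C-DOM held 413388 of 3096681 capture read pairs in forelimb (13.3%, exact Clopper-Pearson 95% interval 13.3 to 13.4%) and 443894 of 3221107 in hindlimb (13.8%, 13.7 to 13.8%). These intervals, like all below, cover counting error only. A C-DOM bin took part in a median of 12025 pairs in forelimb and 12537 in hindlimb. Most values below are balanced contacts, which the authors scaled so that each bin sums to 1, and which are given per 1000. The bins at 16485, 16680, 16690 and 16765 kb were masked in both libraries, and that at 16695 kb in forelimb alone. The masked bin at 16690 kb is the bin of island I, which therefore has no balanced value. Over the 6109 bin pairs at least 10 kb apart and unmasked in both libraries, each pair rested on a median of 48 read pairs in forelimb and 50 in hindlimb. Their observed over expected contact (the balanced value divided by the mean at the same distance over the whole capture region) had a median of 1.005 in forelimb, with extremes of 0.357 and 2.87, and a median of 1.01 in hindlimb, with extremes of 0.411 and 3.27. Single bin pairs at this depth correlated between the libraries with r = 0.686 over the 6109 bin pairs, and 25-kb squares, which pool up to 25 bin pairs, with r = 0.968 over 229 squares. Both are correlations over places of 1 map that share bins and are given as a description.

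The insulation score divided C-DOM, as defined here, near island I into an inner part next to the cluster and an outer part beyond. The C-DOM in which the study quantified contacts ended close to this division, at position 16699172. The outer part thus lies almost wholly outside the limits of the study and holds none of the named elements. Whether it belongs to the same regulatory landscape was not tested. This score was the log2 of the mean balanced contact across a bin edge within 100 kb, relative to its mean over the capture region. Inside C-DOM there was 1 local minimum, and it lay at 16690 kb in both libraries. It was -0.58 in forelimb and -0.57 in hindlimb. Away from it the score rose to 0.12 in forelimb and 0.17 in hindlimb in the inner part, at 16510 and 16505 kb. In the outer part it rose to 0.09 and 0.12, at 16825 and 16820 kb. The internal minimum was thus 0.67 below the lower of its shoulders in forelimb and 0.69 in hindlimb.

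In the 100-kb window the ends of C-DOM, placed on these same maps, were more strongly insulated than the internal division. At 16385 kb, 10 kb outside the first limit, the score was -1.26 in forelimb and -1.30 in hindlimb. At the limit itself, 16395 kb, it was -1.22 and -1.23. At the far end it was -0.92 in both libraries at 16980 kb and lowest at 16995 kb, with -0.95 in forelimb and -0.99 in hindlimb. The libraries followed each other closely in between, since the hindlimb score minus the forelimb score stayed between -0.048, at 16605 kb, and 0.060, at 16475 kb. Of the window around the internal minimum, 80.8% of bin pairs had values in forelimb and 85.5% in hindlimb, because of the masked bins next to island I, and the part of these bins in its exact place was not tested. With a 50-kb window, shallower minima appeared in both libraries at 16555 kb (-0.11 and -0.14), which is the end of the island V bins, at 16785 kb (-0.24 and -0.24) and at 16875 kb (-0.32 and -0.31). The minimum near island I was then -0.71 in forelimb, at 16695 kb, and -0.65 in hindlimb, at 16690 kb. This was closer to the score at the far limit, 16980 kb, which was -0.76 and -0.78.

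**Figure D1:**
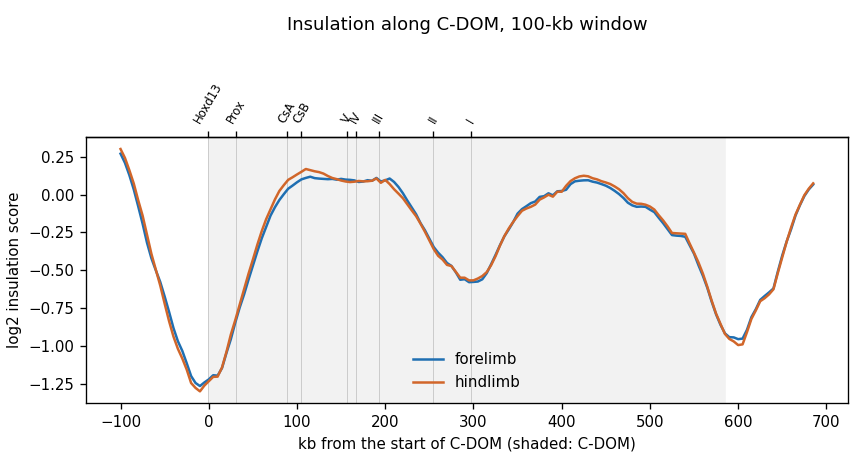
Insulation score (log2, 100-kb window) of every 5-kb bin edge against the distance in kb from the start of C-DOM, for the forelimb (blue) and hindlimb (orange) libraries; the shaded stretch is C-DOM and the ticks above are the named elements. The lines fall to -1.26 and -1.30 at the Hoxd13 end, dip to -0.58 and -0.57 by island I and fall again to -0.95 and -0.99 at the far end.

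Within each of these parts balanced contacts were higher in the hindlimb library, and contacts between them were lower, by amounts that shrank once distance was taken into account. The inner part was taken as 16415 to 16695 kb (56 bins, the C-DOM of the study's 4C quantification reduced to whole bins) and the outer part as 16695 to 16980 kb (57 bins). The stretch from 16395 to 16415 kb, at the Hoxd13 end, is in neither part and thus in no contact counted as joining them. Bin pairs of the inner part averaged 7.77 per 1000 in forelimb against 8.20 in hindlimb (log2 ratio 0.079), and 61.8% of the 1328 were higher in hindlimb. Those of the outer part averaged 7.35 and 7.76 (log2 ratio 0.080), with 64.6% of the 1432 higher in hindlimb. By a Wilcoxon signed-rank test on matched bin pairs, two-sided, both differences passed the threshold (Benjamini-Hochberg adjusted p = 1.40e-26 with n = 1328 and 2.07e-36 with n = 1432, over 7 blocks of contacts). The share of capture-region bin pairs higher in hindlimb at like distances was not computed. Over the whole capture region the log2 ratio was 0.12 at 10 to 20 kb and 0.031 at 80 to 160 kb. The bin pairs within a part are nearer to each other than those joining both parts, and after division by the mean at the same distance the log2 ratios were 0.029 and 0.031 (adjusted p = 0.000524 with n = 1328 and 1.99e-06 with n = 1432). Bin pairs share bins and are not independent, so that these p-values compare the maps of 2 libraries, not 2 tissues.

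Contacts joining the inner to the outer part averaged 3.08 per 1000 in forelimb and 3.02 in hindlimb, or -0.026 on the log2 scale (n = 2915 bin pairs, adjusted p = 9.67e-05). Division by the mean at the same distance left -0.019 (adjusted p = 0.0267, n = 2915 bin pairs). The same direction was seen in unbalanced counts, which are not corrected for distance. The totals here include read pairs of the stretch from 16395 to 16415 kb, which never count as joining both parts. Of 373920 read pairs within C-DOM in forelimb, 104045 joined both parts (27.8%, 27.7 to 28.0%). Of 398198 in hindlimb, 105348 did so (26.5%, 26.3 to 26.6%). This fall of 1.37 percentage points passed a two-sided Fisher exact test, which takes read pairs as independent (adjusted p = 2.85e-41 over 5 shares). Averaged over all distances, crossing contacts were close to the expectation for their distance, at 1.01 in forelimb and 0.998 in hindlimb, against 1.08 and 1.097 within the inner part and 1.02 and 1.04 within the outer part. As mean contact over mean expectation, in which near bin pairs weigh more, crossing contacts were at 0.943 in forelimb and 0.928 in hindlimb. On that measure the inner part stood at 0.997 and 1.01, and the outer part at 0.957 and 0.971. Each block thus fell from above to below 1 in forelimb, and the outer part did so in hindlimb. The side of 1 therefore depended on the averaging. Sequencing lanes are repeat runs of the same library. In crossing contacts the block difference had the same sign in each of the 4 lanes, each balanced by itself (log2 -0.040 to -0.019). It passed the test in lane 3 only. Without the bins within 20 kb of island I, an alternative chosen after seeing the data, it was -0.036 (adjusted p = 1.96e-06, n = 2600 bin pairs).

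All C-DOM bin pairs together averaged 5.21 per 1000 in forelimb and 5.39 in hindlimb (log2 ratio 0.049, adjusted p = 3.66e-26, n = 6109 bin pairs), and 54.7% of them were higher in hindlimb. The same share over the capture region was not computed. Much of the C-DOM difference followed distance. Between 10 and 20 kb C-DOM averaged 14.96 per 1000 in forelimb against 16.6 in hindlimb, with a log2 ratio of 0.15. Next came 0.070 at 20 to 40 kb, 0.069 at 40 to 80 kb, 0.058 at 80 to 160 kb and 0.017 at 160 to 320 kb. Beyond 320 kb it was -0.056, with 2.66 per 1000 in forelimb and 2.56 in hindlimb. The hindlimb library thus held more near and fewer far C-DOM contacts, and the whole capture region moved the same way, from 0.12 in the nearest class to -0.045 in the farthest. Once each bin pair was divided by the mean at its distance, C-DOM averaged 1.05 in forelimb and 1.06 in hindlimb, or 0.0083 on the log2 scale (adjusted p = 0.0196, n = 6109 bin pairs). As mean contact over mean expectation C-DOM stood below 1, at 0.976 in forelimb and 0.983 in hindlimb.

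**Figure D2:**
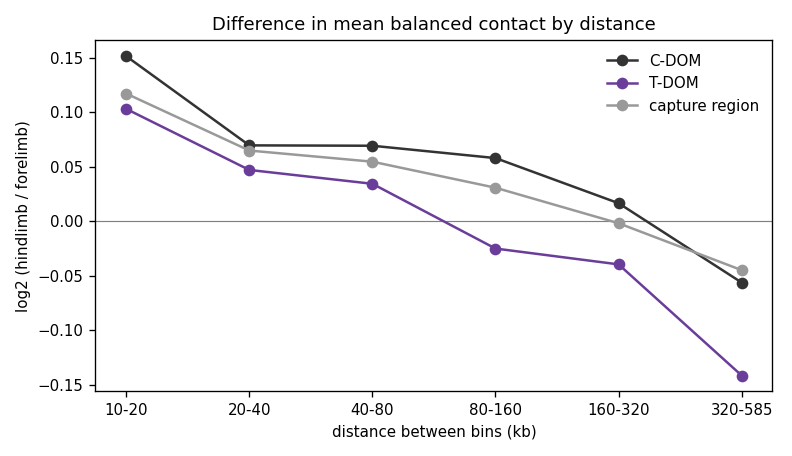
Log2 ratio of the mean balanced contact in hindlimb over that in forelimb, by class of distance between bins in kb, for bin pairs within C-DOM (black), within T-DOM (purple) and in the whole capture region (grey). C-DOM starts at 0.15 between 10 and 20 kb, above both others, and falls to -0.056 beyond 320 kb.

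C-DOM decayed more slowly with distance than the capture region as a whole. Its observed over expected contact was 0.827 in forelimb and 0.844 in hindlimb between 10 and 20 kb. It was near the regional mean between 80 and 160 kb (0.995 and 1.01) and above it in both libraries from 160 to 320 kb (1.08 and 1.09). Beyond 320 kb it reached 1.21 and 1.198. In T-DOM (15925 to 16315 kb, 78 bins), the landscape on the other side of the cluster, the same values were 0.908 and 0.896 in the nearest class and 1.39 and 1.30 in the farthest, which there holds only 105 bin pairs. That class also reaches less far in T-DOM, which spans 390 kb against 585 kb in C-DOM. The regional mean includes bin pairs across domain borders, whereas C-DOM was placed between borders on these same maps. Its slower decay is therefore a description and not a test.

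Whether contacts within C-DOM changed more or less than those within T-DOM depended on the measure. In raw counts C-DOM went from 373920 to 398198 read pairs and T-DOM from 225888 to 248924, so that C-DOM rose less, by a log2 odds ratio of -0.049 (Fisher exact test, adjusted p = 3.31e-20). In balanced values the log2 ratio of hindlimb over forelimb was 0.049 in C-DOM and 0.013 in T-DOM, so that C-DOM rose more, by 0.036. Relative to the mean expected contact of the same bin pairs, these ratios were 0.0095 and -0.038. The balanced versions were added after seeing the data and carry no test. The direction therefore cannot be stated without naming the unit.

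The most frequent contacts for their distance all started in the first 50 kb of C-DOM. Squares of 25 kb by 25 kb, at least 50 kb apart, were called where observed over expected was 1.5 or more. In C-DOM 12 of 229 squares were called in forelimb, against 7.21% of all 2191 squares of the capture region. Likewise 12 were called in hindlimb (7.30% of all) and 9 in both libraries (6.07% of all), and the share called in C-DOM, 5.24% in each library, was below that of the capture region. Of the 15 called in either library, 10 involved the stretch from 16395 to 16420 kb and 5 that from 16420 to 16445 kb, and in 9 the partner lay in the outer part. The called square with the lowest forelimb value was at 1.51 and the highest one not called at 1.49.

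The highest square joined 16395 to 16420 kb, the C-DOM end beside Hoxd13, with 16645 to 16670 kb, which holds the larger share of island II. It held 1740 read pairs in forelimb and 2086 in hindlimb, with observed over expected at 2.04 and 2.33. The lanes taken singly gave 1.91 to 2.13 in forelimb and 2.09 to 2.46 in hindlimb, ranges that overlap. The other squares picked as highest joined the same first stretch with 16870 to 16895 kb (1.84 in forelimb and 1.83 in hindlimb) and with 16945 to 16970 kb (1.83 and 1.705), both in the outer part. Picks were made by forelimb value, passing over squares next to one already picked. The first stretch with 16670 to 16695 kb was passed over, at 1.86 in forelimb and 1.91 in hindlimb, above both of these. With 16695 to 16720 kb, at the start of the outer part, the first stretch stood at 1.79 and 2.002. That was below both in forelimb and above both in hindlimb. High contact of the first stretch thus ran on from island II past island I. Single bin pairs placed the peak at 16650 to 16655 kb, inside island II. The bin at 16395 kb met it with 119 read pairs in forelimb and 141 in hindlimb, observed over expected 2.87 and 3.27. The next bin, at 16400 kb, met it with 94 and 140 read pairs, at 2.38 and 3.27.

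**Figure D3:**
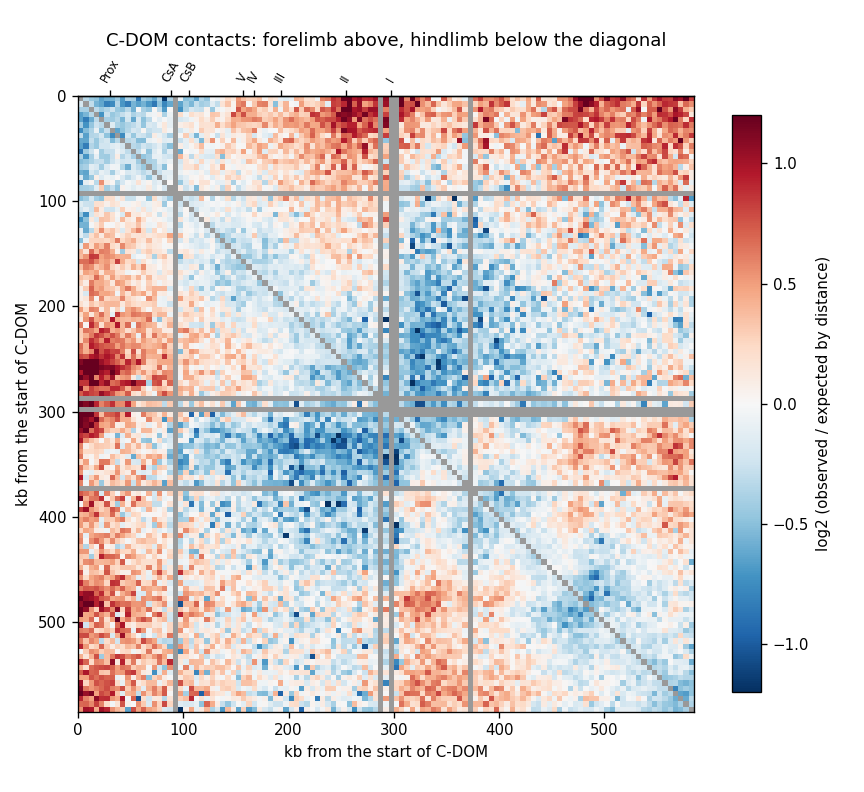
Log2 of observed over expected contact for every pair of 5-kb bins in C-DOM, both axes in kb from its start, with the forelimb library above the diagonal and the hindlimb library below; red is above and blue below the mean of the capture region at that distance, grey is masked. Red bands run along the first 50 kb, darkest at island II, where the 25-kb square reached 2.04 in forelimb and 2.33 in hindlimb, and a blue field lies beyond island I, with squares down to 0.636 in forelimb and 0.616 in hindlimb.

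The squares picked as lowest in forelimb faced each other across island I. Island II's stretch, 16645 to 16670 kb, met 16720 to 16745 kb at 0.636 of the expectation in forelimb and 0.637 in hindlimb (1021 and 1082 read pairs). The stretch from 16595 to 16620 kb met the same partner at 0.654 and 0.644, and that from 16620 to 16645 kb met 16770 to 16795 kb at 0.752 and 0.713. Squares next to one already picked were passed over, and some of them were lower than the last. Among these, 16670 to 16695 kb met 16720 to 16745 kb at 0.638 in forelimb and 0.616 in hindlimb. From 16620 to 16645 kb, contact with that partner stood at 0.647 and 0.640. The stretch of island II thus took part in the highest square of the forelimb library, towards Hoxd13, and in the lowest, towards the near end of the outer part.

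Between the libraries few squares stood apart. The ratio of hindlimb over forelimb observed over expected passed 1.2 in 1 of 229 C-DOM squares (0.958% of all squares of the capture region) and passed it in the other direction in 0 (0.958% of all). That square joined 16495 to 16520 kb, which holds CsB, with 16870 to 16895 kb. It stood at 1.01 in forelimb and 1.26 in hindlimb, from 530 and 641 read pairs. The next squares by ratio were the Hoxd13 side with island II, described above, and 16695 to 16720 kb with 16870 to 16895 kb, inside the outer part, at 1.25 in forelimb and 1.43 in hindlimb. At the other end, 16645 to 16670 kb with 16945 to 16970 kb stood at 1.16 in forelimb and 0.977 in hindlimb, 16470 to 16495 kb with 16895 to 16920 kb at 1.29 and 1.12, and 16445 to 16470 kb with 16945 to 16970 kb at 1.38 and 1.22. These squares were picked by their ratio and were not tested. With squares of 50 kb the counts in C-DOM were 3 of 55 in forelimb (6.68% of all squares), 2 in hindlimb (6.68%) and 2 in both (5.78%), and 0 passed the ratio in either direction (0 higher and 0.181% lower among all).

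Among the named elements, island II was the preferred partner of both Hoxd13 and Prox. Hoxd13 met island II 2.15 times as often as the mean at their distance in forelimb (787 read pairs) and 2.33 times in hindlimb (882 read pairs). The log2 ratio of the scaled counts was 0.11 with an interval of -0.033 to 0.25, which includes 0. Prox met island II at 1.85 in forelimb and 2.002 in hindlimb (741 and 830 read pairs, log2 ratio 0.11, interval -0.038 to 0.25). These were the only pairs of named elements at or above 1.5 in both libraries, among 23 pairs with values and at least 50 kb apart. Among all 25-kb squares of the capture region, a unit of another size, 6.07% were at or above 1.5 in both. Hoxd13 and Prox lie at the end of C-DOM where all 15 squares called in either library had a side, within its first 50 kb. Of the 23 pairs of elements, 12 were above 1 in both libraries, 4 below 1 in both and 7 on different sides of 1. The matching shares over other stretches were not computed, so these counts are a description. Over all C-DOM bin pairs the median was 1.005 in forelimb and 1.01 in hindlimb.

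Hoxd13 met the other elements less evenly. With island V it stood at 1.40 in forelimb and 1.35 in hindlimb. With island III it stood at 1.07 and 1.19, and with island IV at 1.196 and 1.08. With the elements between Prox and island V it was below expectation, at 0.681 and 0.699 for CsA and 0.712 and 0.759 for CsB, and with Prox itself, 30 kb away, at 0.636 and 0.611. Relative to the expectation, Hoxd13 contacts thus rose with distance, though not evenly. The low values lay nearest and the highest was at island II, 255 kb away on average. Such a climb was not particular to the named elements. The 25-kb square of 16395 to 16420 kb with 16445 to 16470 kb stood at 0.766 in forelimb and 0.784 in hindlimb. With 16520 to 16545 kb that stretch stood at 1.10 and 1.14, and with 16645 to 16670 kb at 2.04 and 2.33. Island I could be counted only in raw read pairs, 41 in forelimb and 43 in hindlimb with Hoxd13, in a masked bin with 2135 and 2363 pairs in all.

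Most element pairs could not be told apart between the libraries at this depth. The counting interval of the scaled log2 ratio excluded 0 in 3 of 23 pairs, all higher in hindlimb, and no adjustment for their number was made. The share of other stretches of the capture region that would do so was not computed. Scaled counts are not corrected for distance, and the 3 pairs lie 62.5 to 125 kb apart. In balanced values the whole capture region was itself higher in hindlimb there, by 0.055 at 40 to 80 kb and 0.031 at 80 to 160 kb (log2). Prox with island V went from 341 to 419 read pairs (1.23 and 1.41 of the expectation, log2 ratio 0.24, interval 0.031 to 0.45). CsB with island III went from 351 to 439 (0.993 and 1.17, log2 ratio 0.27, interval 0.060 to 0.47). Island III with island II went from 1009 to 1148 (0.880 and 0.946, log2 ratio 0.13, interval 0.0061 to 0.25). In each of these, the range over the 4 lanes in forelimb overlapped that in hindlimb.

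**Figure D4:**
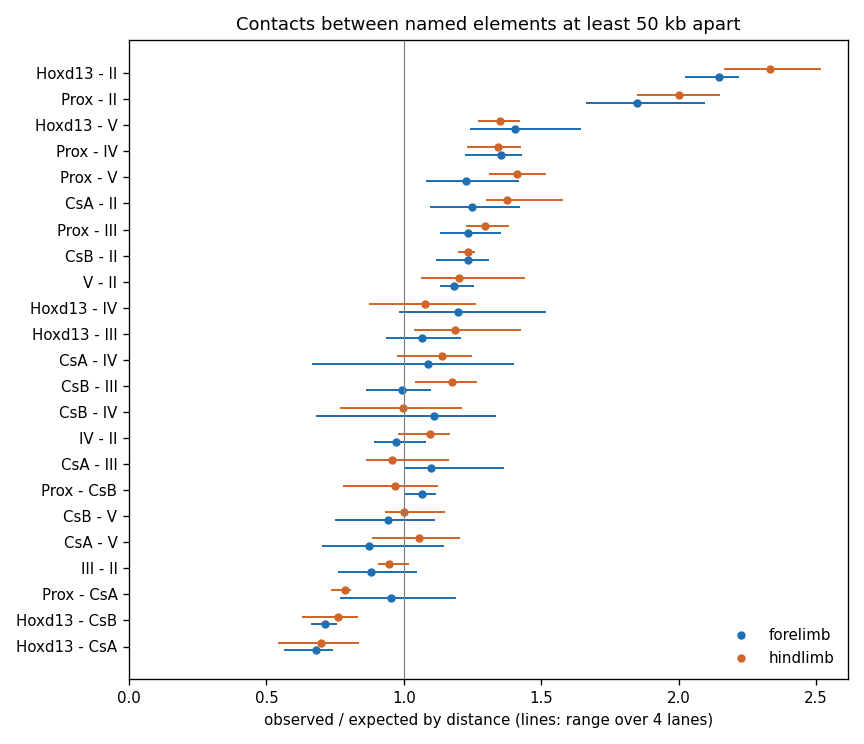
Observed over expected contact of the 23 pairs of named elements at least 50 kb apart, sorted by the mean of both libraries, for forelimb (blue) and hindlimb (orange); points are the deposited matrices and lines the range over 4 sequencing lanes balanced singly. Hoxd13 with island II (2.15 and 2.33) and Prox with island II (1.85 and 2.002) lie apart at the top, and Hoxd13 with CsA (0.681 and 0.699) is at the bottom.

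Prox, with 10 kb on either side (16410 to 16440 kb, 6 bins), contacted the far stretches of C-DOM, as defined here, more than its near surroundings, relative to distance. Its observed over expected contact was 0.662 in forelimb and 0.659 in hindlimb with the bins from 16395 to 16405 kb (bins less than 10 kb away were left out), and 0.843 and 0.863 with 16445 to 16470 kb. It climbed to 1.25 and 1.36 at 16545 to 16570 kb, where islands V and IV lie. The peak was 1.80 in forelimb and 1.94 in hindlimb at 16645 to 16670 kb, at island II. Past island I it dropped to 1.29 and 1.16 at 16720 to 16745 kb and returned to 1.59 and 1.56 at 16870 to 16895 kb. All stretches from 16495 kb on, those beyond island I included, were above 1 in both libraries. Higher contact with far stretches was not particular to Prox. C-DOM as a whole stood at 0.827 in forelimb and 0.844 in hindlimb between 10 and 20 kb. Beyond 320 kb it stood at 1.21 and 1.198. T-DOM went from 0.908 and 0.896 to 1.39 and 1.30 over the same classes.

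With the rest of C-DOM up to 16695 kb Prox had 21680 read pairs in forelimb and 23480 in hindlimb, and with the outer part 11496 and 11146. Scaled to the capture totals, the first were higher in hindlimb by a log2 ratio of 0.058 (interval 0.032 to 0.085) and the second lower, by a log2 ratio of -0.10 (interval -0.14 to -0.064). Observed over expected, averaged over bin pairs, was 1.23 in forelimb and 1.299 in hindlimb up to 16695 kb and 1.42 and 1.38 with the outer part. The lane ranges did not overlap for the former (1.21 to 1.26 in forelimb, 1.29 to 1.31 in hindlimb) and overlapped for the latter. Since 5 of the 6 Prox bins are bins of the inner part, these contacts are mostly included in the blocks described above. With the whole rest of C-DOM, Prox averaged 4.86 per 1000 in forelimb against 5.02 in hindlimb (log2 ratio 0.047, adjusted p = 0.00616, n = 634 bin pairs). That call was lost in counts scaled to the capture total (log2 ratio 0.0049, adjusted p = 0.634) and after division by the mean at the same distance (adjusted p = 0.232, n = 634 in both).

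Partners from 10 to 200 kb away on either side were also counted, those outside C-DOM included. Most of the cluster side of Prox lies beyond the C-DOM limit at 16395 kb, in the cluster and T-DOM. Prox had 32.4% of its read pairs (31.8 to 33.03%) on the cluster side in forelimb, 7307 of 22541. In hindlimb it had 31.4% (30.8 to 32.0%), 7558 of 24060. The difference of -1.003 percentage points had a Fisher exact p of 0.0205 (adjusted p = 0.0256 over 5 shares). It did not keep its direction in every lane, being 0.916 percentage points in lane 1 alone.

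Island III, with 10 kb on either side (16570 to 16605 kb, 7 bins), stood above expectation towards the cluster and below it with most of the outer part, unlike Prox. Island III stood at 1.21 of the expectation in forelimb and 1.29 in hindlimb with 16395 to 16420 kb, and at 1.21 and 1.27 with 16420 to 16445 kb, the stretch of Prox. From there its values declined to 0.866 and 0.869 at 16545 to 16565 kb, just before the element. On its other side they stayed below 1, with 0.949 and 0.930 at island II (16645 to 16670 kb) and a trough of 0.694 and 0.656 at 16720 to 16745 kb. Toward the far end of C-DOM they came back to between 0.931 and 0.997 over 16895 to 16970 kb. This course was not particular to island III. As a 25-kb square, 16620 to 16645 kb met 16395 to 16420 kb at 1.59 in forelimb and 1.64 in hindlimb. It met 16720 to 16745 kb at 0.647 and 0.640. The square of 16570 to 16595 kb, which holds island III, stood at 1.18 and 1.27 with the first partner and at 0.692 and 0.673 with the second.

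Averaged over bin pairs, island III stood at 1.03 in forelimb and 1.05 in hindlimb with the rest of C-DOM up to 16695 kb and at 0.867 and 0.868 with the outer part. As mean contact over mean expectation the former were just below 1, at 0.988 and 0.993. The corresponding values of Prox with the outer part were 1.42 and 1.38, and over all lanes these elements did not overlap there (0.860 to 0.877 for island III, 1.31 to 1.45 for Prox). The bins with the least far contact in C-DOM lay in and next to island III. Averaged over all C-DOM partners at least 100 kb away, the lowest bins by the mean of both libraries were 16585 to 16590 kb (0.904 in forelimb and 0.937 in hindlimb), 16575 to 16580 kb (0.927 and 0.947) and 16595 to 16600 kb (0.936 and 0.939), followed by 16605 to 16610 kb (0.961 and 0.952). The first of these is a bin of island III itself and the last lies outside its 10-kb flank. The highest were at the Hoxd13 end, led by 16395 to 16400 kb (1.51 and 1.58) and 16410 to 16415 kb (1.499 and 1.52). These bins were singled out after their values were seen. The other bins of island III stood at 0.945 in forelimb and 0.986 in hindlimb (16580 to 16585 kb) and at 0.976 and 0.951 (16590 to 16595 kb). Bins in the middle of C-DOM have no partners as far away as bins at its ends do. Observed over expected in C-DOM was higher at longer distances, and the part of this in the ranking was not tested.

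**Figure D5:**
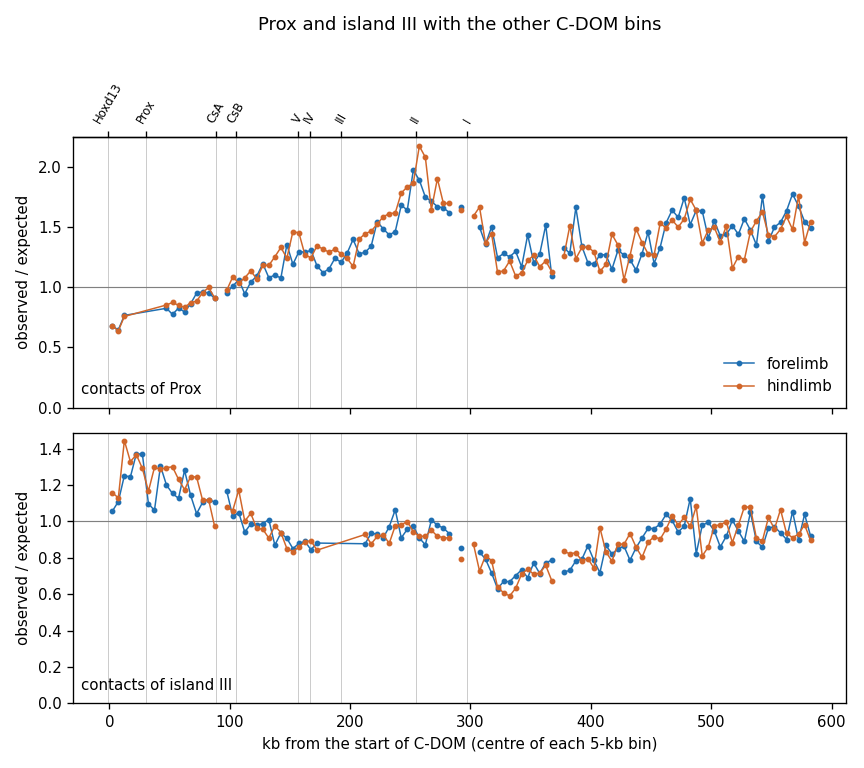
Observed over expected contact of Prox (top) and island III (bottom), each with 10 kb on either side, with every other 5-kb bin of C-DOM against the distance in kb from its start, for forelimb (blue) and hindlimb (orange); gaps are masked bins and the element itself. Prox climbs to 1.80 and 1.94 at the stretch of island II and stays above 1 beyond it, whereas island III is above 1 towards the Hoxd13 end and falls to 0.694 and 0.656 beyond island I.

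Between the libraries, island III with the rest of C-DOM averaged 4.99 per 1000 in forelimb against 5.13 in hindlimb (log2 ratio 0.040, adjusted p = 0.00117, n = 733 bin pairs). Counts scaled to the capture total gave 0.014 (adjusted p = 0.460) and division by the mean at the same distance gave adjusted p = 0.232 (n = 733 in both), so that here too the call did not outlast either change. Prox and island III met each other at 5.54 per 1000 in forelimb and 5.83 in hindlimb from 2516 and 2638 read pairs. Their log2 ratio of 0.074 did not pass the test (adjusted p = 0.118, n = 42 bin pairs), and the scaled counts gave 0.011 with an interval of -0.068 to 0.091. Against distance this contact stood at 1.24 and 1.29. Island III had 54.3% of its pairs on the cluster side in forelimb (53.8 to 54.9%) and 54.8% in hindlimb (54.3 to 55.3%), and this difference did not pass the Fisher exact test (p = 0.214).

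C-DOM kept a larger share of its contacts to itself in the hindlimb library. Of the capture read pairs with at least 1 end in C-DOM and at least 10 kb long, 40.7% stayed within it in forelimb (40.6 to 40.8%, 373920 of 917858) and 42.7% in hindlimb (42.6 to 42.8%, 398198 of 931828). These shares are of unbalanced counts and are not corrected for distance. Over the whole capture region the log2 ratio of balanced contacts went from 0.12 in the nearest class to -0.045 in the farthest. Divided by the mean at the same distance, contacts within C-DOM differed by 0.0083 on the log2 scale. How far the shares followed distance was not tested. The rise of 1.99 percentage points passed the Fisher exact test (adjusted p = 7.59e-166). It came with lower shares for the captured stretches outside the cluster and both landscapes. The stretch beyond C-DOM, which adjoins it, took 26.1% in forelimb and 25.2% in hindlimb, and that beyond T-DOM 13.8% and 11.9%. The shares of the cluster (4.65% and 4.77%) and of T-DOM (14.7% and 15.4%) were higher in hindlimb. Prox followed with 55.0% of its capture pairs inside C-DOM in forelimb and 57.0% in hindlimb, and island III with 57.7% and 59.7%. T-DOM also kept more of its own contacts in hindlimb, 34.0% against 32.9%.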

How the data were processed

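Contacts were measured by CHi-C in 1 forelimb and 1 hindlimb library, grouped by the tissue in their labels. The authors trimmed reads with cutadapt and used HiCUP, which calls Bowtie2, to map them to galGal5 and to filter pairs by DpnII fragment, each mate being placed at the middle of its fragment (methods of the study). The deposited valid-pair lists give the mapping quality of each mate as a score. Counts in the deposited raw matrices are numbers of read pairs, without normalization. The methods of the study give mapping qualities above 30, and pairs with both at 30 or more gave the deposited totals here. The deposited balanced matrices hold a signal that the authors obtained with cooler: each unmasked bin sums to 1 without the 2 nearest diagonals. Coverage differences between bins and depth are thereby removed, and a gain in one place of a bin is a loss in another. The chromosome 2 matrices were not used here.

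Expected contact was the mean balanced value at each distance over the capture region. For blocks, elements and profiles each bin pair was divided by its expectation and the ratios averaged, and for squares, distance classes and the comparison with T-DOM the mean contact was divided by the mean expectation; the ratios averaged over the bin pairs of blocks and elements were added after seeing the data. Insulation minima were the lowest edges within 50 kb on either side. Blocks were compared over bin pairs at least 10 kb apart by the two-sided Wilcoxon signed-rank test, as in the study, and shares of raw pairs by the two-sided Fisher exact test (scipy 1.17.1), with Benjamini-Hochberg adjustment over 7 blocks and over 5 shares at a threshold of 0.05. Shares have exact Clopper-Pearson intervals and count ratios intervals from the exact binomial one, all at 95%. Pairs without molecular identifiers are not surely independent.

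Lanes were read from the names of the read pairs, and matrices of each of the 4 lanes and of all valid pairs were rebuilt and balanced here. The rebuilt matrix had the deposited totals, with other counts in 56 bin pairs (forelimb) and 58 (hindlimb), and its balanced values differed by at most 0.983% and 1.08%. Lanes are repeat sequencing of 1 library and are not replicates. The steps were tested on simulated data.

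Regions named were the elements lifted over by the study inside C-DOM, the Hoxd13 viewpoint, insulation minima shared by both libraries, and the 3 highest and 3 lowest 25-kb squares by forelimb observed over expected and by ratio between libraries with at least 50 read pairs in each. Squares next to one already picked were passed over. The members, elements and tests were chosen with earlier results of these data known. Alternatives were scaled counts, division by distance, the 10-kb matrices, a minimum of 30 kb, single lanes, all valid pairs, unmasked bins only, other insulation windows, other expectations and 50-kb squares.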

Additional observations from a re-analysis of the deposited data

How the results depend on the processing

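With 2 libraries there is no estimate of the spread between embryos, and the depth of about 50 read pairs per bin pair limits statements to stretches of several bins. No paired analysis was possible because each tissue has 1 library and the labels give no replicate numbers. All 7 blocks kept their sign under every alternative, with 12 calls lost over 70 fits. Prox with the rest of C-DOM lost its call in scaled counts (log2 0.0049), after division by distance (0.012), at 30 kb or more (0.035) and in lanes 1 (0.020) and 2 (0.023). Island III with the rest lost it in scaled counts (0.014), after division by distance (0.013) and in lanes 1 (0.035) and 4 (0.015). Inner with outer part lost it in lanes 1 (-0.023), 2 (-0.019) and 4 (-0.027). The cluster-side share of Prox turned over in lane 1 (0.916 percentage points) and lost its call in lanes 3 (-1.30) and 4 (-1.87). That of island III turned over in lane 1 (-0.366) and passed in lane 4 (1.77). The change within C-DOM against T-DOM, -0.049 in counts, turned over in balanced values (0.036), in balanced values divided by distance (0.047) and in those within 320 kb (0.050), all added after seeing the data. The internal insulation minimum lay at 16700 kb with windows of 150 and 200 kb in both libraries and at 16680 kb in the 10-kb matrices. With 50-kb squares 3 of 55 were called in forelimb, 2 in hindlimb and 2 in both, and 0 passed the ratio upwards. Of 46 element values, 7 moved beyond their counting interval with the expectation taken from C-DOM alone and 28 with raw counts, where Hoxd13 with island II rose to 2.92 in forelimb and 3.17 in hindlimb. The causes of these changes were not tested.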
